A study of Homo sapiens with 24 samples.

Results

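Serum starvation was compared with untreated culture through the m1A peaks called in each condition. The material was HEK293T, a human embryonic kidney cell line, of wild-type genotype in both of these conditions. Starve cells were rinsed with PBS 2 times and then kept for 16 h in DMEM lacking fetal bovine serum. UT cells, the untreated controls, stayed in DMEM with 10% serum. Each group had 2 input and 2 anti-m1A immunoprecipitated (IP) libraries, 8 of the 24 in the series, and 1 peak list per replicate. Wherever peaks of the 4 lists shared 1 nt or more of a transcript they were merged, which turned 37319 peaks into 30272 regions. Of these, 723 lay in both Starve lists and neither UT list (Starve-only), 586 in both UT lists and neither Starve list (UT-only), and 438 in all 4. The whole series holds 61237 peaks in 10 lists. The other 6 lists, used below to look for overlap, came from H2O2-treated cells, ALKBH3 knockout cells and another set of untreated wild-type cells. The labels do not say whether replicates came from separate cultures, so their spread may be technical.

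N1-methyladenosine (m1A) is an adenosine with a methyl group on the edge that pairs with uridine, so it blocks normal base pairing and carries a positive charge. It is best known from tRNA and rRNA, where methyltransferases such as TRMT6 with TRMT61A or TRMT10C place it, and in messenger RNA it is found mostly near the 5′ end. Serum supplies growth factors and lipids. Without it, cultured cells lower signalling through the ERK and mTOR pathways, make less ribosomal protein and slow their entry into DNA synthesis.

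Some regions began so close to the transcript start that RefSeq's table of gene starts (build GRCh38.p14) holds a piece of them. The stretches below are bases 21 to 50 after the gene's start. If the transcript begins at that start, they lie inside the region and show how many adenosines it holds there. They are, of genes with 1 start in that table, the 3 Starve-only, the 2 UT-only and the 2 shared regions (those in all 4 lists) of highest fold. Capitals mark the adenosines, the base that can carry the mark. The transcripts in the peak lists have no version number, so a start may differ by some bases from the one used for peak calling. Starts were matched by gene symbol, and whether each belongs to the transcript of the region was not checked.
NFATC2IP: AgggggcggggcgAggcgAgAggAggcggg
KMT2B: cggcggcggcgggcggcggcAgttgccccg
HPS5: gcgctAAgccgggAgAcAAgAtccgAtctA
CACTIN: cccAgccgAtgggtcgggAcAcAcgctcgc
NMT1: AcgAgAgtgAgAcAgcAgtgAAgccgccgg
MPV17L2: ggcgAAAgcAgAgcggcgcgccggttcctt
VKORC1L1: gcctcttcggccgttgcgcActccAccccc

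The Starve-only stretches lie at chr16:28950957-28950986 on the + strand (NFATC2IP), chr19:35718023-35718052 on the + strand (KMT2B) and chr11:18322091-18322120 on the − strand (HPS5). The UT-only ones lie at chr19:3626741-3626770 on the − strand (CACTIN) and chr17:45061337-45061366 on the + strand (NMT1). The shared ones lie at chr19:18193238-18193267 (MPV17L2) and chr7:65873094-65873123 (VKORC1L1), both on the + strand. NFATC2IP, KMT2B and HPS5 hold 5, 1 and 9 adenosines in these 30 bases, CACTIN and NMT1 5 and 9, and MPV17L2 and VKORC1L1 5 and 2. KMT2B is a histone H3 lysine methyltransferase, HPS5 works in the making of lysosome-related organelles, NMT1 attaches myristate to proteins, and VKORC1L1 reduces vitamin K. The lower fold of the replicates, a measure described below, was 10.2, 6.53 and 6.36 for the Starve-only regions and 6.44 and 6.02 for the UT-only ones. In the 50 transcribed bases of their starts, genes with a Starve-only region near the 5′ end had a median of 70% G and C, those with a UT-only one 70% and those with a shared one 72%. The median was 68% over all genes with a peak in the 4 lists and 60% over all 27305 genes of the table. A start was found for 85.2%, 85.8% and 82.7% of the genes of the 3 classes.

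The Starve lists held 11362 and 8791 peaks, against 7871 and 9295 in the UT lists. A peak carries the authors' fold, its enrichment over background, and a pileup, its coverage at the summit. Replicate 2 of Starve stood apart from the other lists of this comparison, with a median fold of 6.64 and a median pileup of 110. Replicate 1 of Starve had 4.04 and 51, and the UT lists had 3.90 and 4.16 with 56 and 44. Elsewhere in the series, replicate 2 of H2O2 had a higher median fold and pileup still, 8.27 and 178. Of the 723 Starve-only regions, 559 had the higher fold in replicate 2, by a median factor of 1.61, and of the 586 UT-only regions 282 did, with a median factor of 0.971. Many folds follow pileup alone, with no local term to be seen: FIP1L1 and STK38L both had a pileup of 64 in replicate 1 of Starve and both a fold of 6.56. Likewise TWNK and APAF1 both had a pileup of 78 and a fold of 7.16 in replicate 1 of UT. Among such peaks an order by fold is an order by coverage in the IP library. Folds are therefore given list by list. Genes were ordered by the lower of their folds, which in Starve is mostly that of replicate 1. The descriptions of the UT libraries name the Starve lists, while separate lists carry the name UT, and peak names inside the Starve and UT lists carry the letters FBS and WT. The names of the lists were followed, and each result below rests on that.

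Most regions were called once. Of the 30272 regions 25143 (83.1%) lay in 1 list, 3721 in 2, 970 in 3 and 438 in 4. Starve-only regions made up 2.39% of all regions, UT-only 1.94% and regions in all 4 lists 1.45%. The other regions held by 2 lists, 2412, were in 1 Starve and 1 UT list, which can be paired in 4 ways. With only the 7871 strongest peaks of each list, 471 regions were Starve-only and 563 UT-only, so the order of these counts turned. Among the 970 regions of 3 lists, 486 lacked a UT call and 484 a Starve call. With 2 lists a group no exact permutation test of a single region was useful, since its smallest two-sided p is 0.333. A peak list has no value for a region it does not hold, so a missing call can mean less methylation, less RNA or too few reads, and these cannot be told apart.

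The Starve-only regions lay on 700 transcripts of 452 genes, and the UT-only regions on 572 transcripts of 344 genes. Isoforms repeat a signal: RBPMS alone carried 8 Starve-only regions and ADIPOR1, an adiponectin receptor, 8 UT-only ones, and 291 and 209 genes had a single one. Of the 452 genes 18 also had a region in all 4 lists, and of the 344 genes 10 did. Over all 8465 genes with a peak 3.18% had such a region, and no test was run on these counts. A region can also miss the other group by little. UQCRC1, a subunit of mitochondrial complex III, had a Starve-only region that stopped 2 nt from a UT peak, and TNKS had a UT-only region as close to a Starve peak. Within 100 nt of a peak of the other group lay 45 Starve-only and 37 UT-only regions. In 333 Starve-only regions (46.1%) and 252 UT-only regions (43.0%) the transcript had no peak of the other group at all. At the other edge, 52 of the 438 regions in all 4 lists joined a Starve and a UT peak that did not overlap each other.

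By gene, counting a peak anywhere on any transcript, 514 of 8465 genes (6.07%) were called in both Starve lists and in neither UT list, 345 (4.08%) in both UT lists and in neither Starve list, and 842 (9.95%) in all 4. In 341 of the 514 genes the 2 Starve lists placed their peaks in different regions or isoforms, and in 214 of the 345 genes the 2 UT lists did. The call was at one place in both replicates for 173 Starve-only and 131 UT-only genes, and the genes described next were taken from these, those of highest fold first.

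The 16 Starve-only genes of highest fold all had a fold above 6 in both replicates and no peak on any transcript in the UT lists. CHMP5, a component of the ESCRT-III membrane-remodelling machinery, had folds of 11.97 and 13.3 in the 2 Starve lists at nt 363 to 587 of NM_016410, with pileups of 202 and 179. CMTM6, a membrane protein that stabilises PD-L1, had 6.97 and 6.43 at nt 843 to 947. Both replicates gave these genes nearly the same fold. Of mitochondrial genes, MRPL10, a protein of the large mitochondrial ribosomal subunit, had 9.39 and 10.4 at nt 13 to 341 of NM_148887. ETFDH, which passes electrons from flavoproteins to ubiquinone, had 6.46 and 17.1, and ATP5PD, a subunit of ATP synthase, 6.37 and 6.44.

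RBPMS, an RNA-binding protein, had folds of 9.22 and 9.13 at nt 366 to 628 of NM_006867. PPIL4, a cyclophilin-like prolyl isomerase, had 8.27 and 18.0, FIP1L1, a subunit of the polyadenylation machinery, 6.56 and 18.7, and DDX27, an RNA helicase of ribosome assembly, 6.42 and 18.4. RPS16, a protein of the small ribosomal subunit, had 6.41 and 8.10 at nt 72 to 191 of NM_001020, on the deepest coverage of these genes, with pileups of 633 and 983. Signalling genes followed. BAX, which permeabilises the mitochondrial outer membrane in apoptosis, had 7.88 and 19.98 at nt 63 to 186 of NM_138764. EPHB2, an ephrin receptor kinase, had 6.77 and 11.9. SHOC2, a scaffold that links RAS to RAF, had 9.59 and 6.63. The kinase STK38L had 6.56 and 21.3, and GNAI1, an inhibitory G protein subunit, 6.67 and 6.53. LOC441081, a noncoding transcript, showed the widest gap between the replicates of these 16 genes, 6.61 and 33.6.

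The 12 UT-only genes of highest fold had between 5.77 and 15.5 in the UT lists. DNAJB11, a co-chaperone of the endoplasmic reticulum, had 7.69 and 8.33 in the 2 UT lists at nt 81 to 276 of NM_016306, with pileups of 127 and 69. AGTRAP, which binds the angiotensin receptor, had 8.34 and 7.62 and PHF20L1, a reader of methylated lysine, 7.98 and 7.38. Several act in the nucleus: NEIL1, a DNA glycosylase of base excision repair (6.98 and 6.90), CACTIN, a splicing-associated protein (6.44 and 15.5), ZNHIT6, which assembles box C/D small nucleolar RNPs (6.44 and 6.90), and MED27, a Mediator subunit (9.16 and 6.31). MKNK1, the kinase that phosphorylates the cap-binding protein eIF4E downstream of ERK, had 6.07 and 8.57 at nt 355 to 536 of NM_003684. ANKRD13D (6.80 and 12.5), THEM6 (5.77 and 7.26), the readthrough locus ATP5MF-PTCD1 (8.43 and 5.95) and the noncoding LOC101927830 (9.34 and 7.14) completed the group. The 2 UT replicates lay furthest apart for CACTIN and ANKRD13D.

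Of the regions in all 4 lists 16 had a fold of 10 or more in every list, while 4 Starve-only and 3 UT-only regions had it in both lists of their group. Of the 438 shared regions 9 had no gene symbol and were left out of the named genes. Among them were a ribosomal RNA (lowest fold 68.1) and NM_001190470 (126), both above every gene named next. MPV17L2, a protein of mitochondrial ribosome assembly, had folds of 26.1 and 41.4 in Starve and 28.3 and 20.04 in UT, at nt 10 to 223 of NM_032683. MAPK3, the kinase ERK1, had 24.4 and 21.1 in Starve and 21.8 and 19.0 in UT. TUBB4A, a beta tubulin, had 14.7 and 15.8 in Starve and 17.4 and 17.6 in UT. CYREN, a regulator of DNA end joining, had 16.8 and 12.4 in Starve and 40.7 and 41.2 in UT, and USP32, a deubiquitinase, had 27.7 and 23.6 in Starve and 10.6 and 20.7 in UT. The pileups of CYREN were 165 and 123 in Starve and 448 and 345 in UT. The values of Starve and UT did not overlap for TUBB4A, CYREN, USP32, GTF2IRD1 and SPRNP1. Over the 438 shared regions both Starve folds lay above both UT folds in 121 and below them in 44, but a fold is relative to each list's own background and was not tested across lists. GTF2IRD1, the pseudogene SPRNP1, VKORC1L1, SSBP4 and the corepressor CTBP2 completed the 10, with lowest folds of 11.1 down to 9.25.

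**Figure D1:**
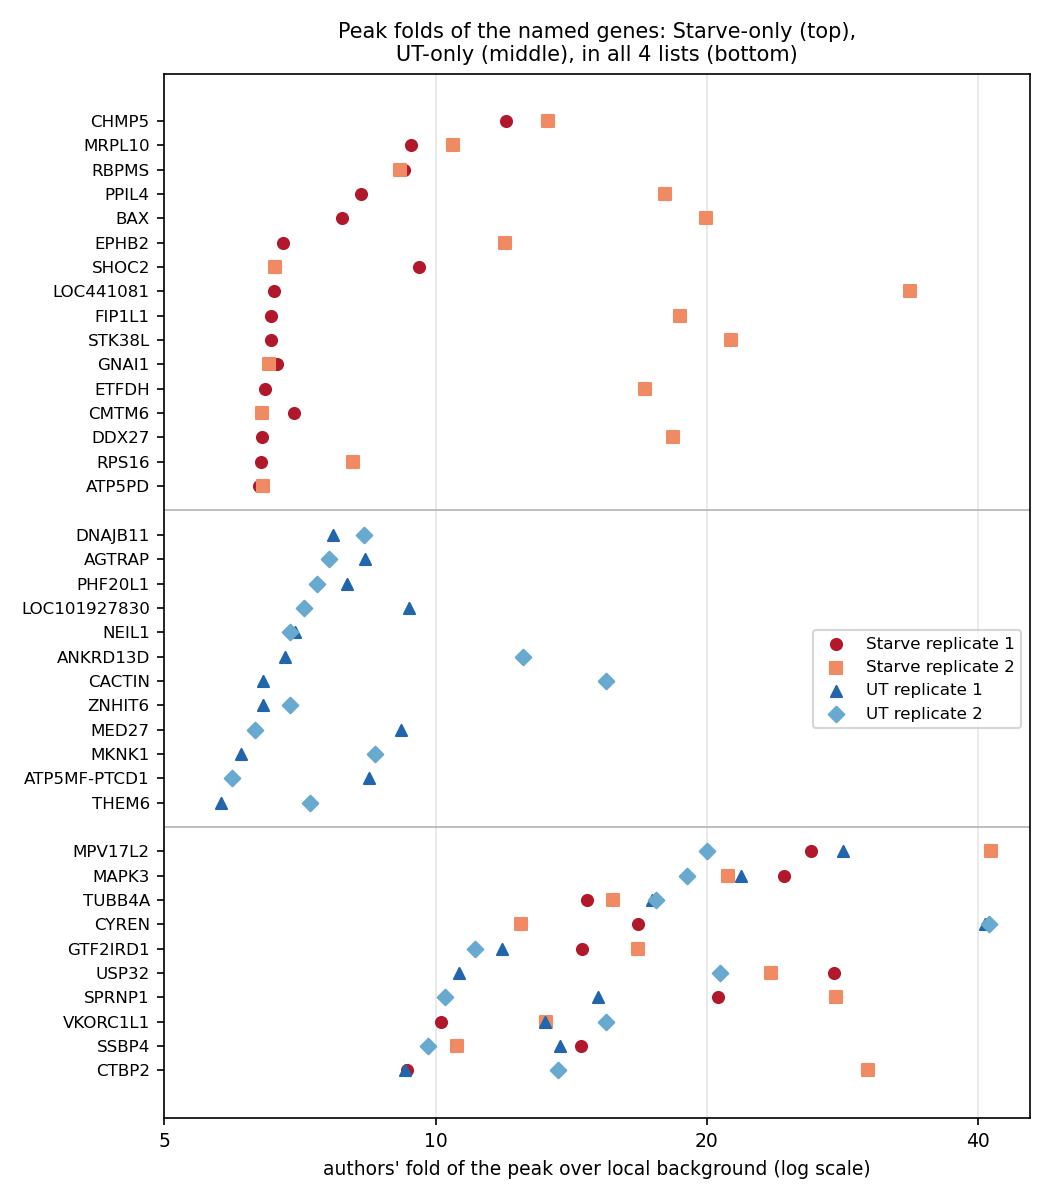
Authors' fold over background (x axis, log scale). Rows are 16 Starve-only genes (top), 12 UT-only genes (middle) and 10 genes with a region in all 4 lists (bottom). Each point is 1 replicate list: circles and squares for Starve, triangles and diamonds for UT. Starve-only genes have no UT point and UT-only genes no Starve point, because the list holds no peak there. The replicates of Starve lie far apart for PPIL4, BAX and FIP1L1, and close together for CHMP5 and RBPMS.

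The position of a region on its transcript was not used to define the classes. Summits of Starve-only regions lay within 300 nt of the start in 335 of 723 (46.3%, 95% Wilson interval 42.7 to 50.0) and those of UT-only regions in 273 of 586 (46.6%, 42.6 to 50.6). In regions of all 4 lists the share was 345 of 438 (78.8%, 74.7 to 82.3), and in regions of a single list 20.5% (20.01 to 21.01). The median summit lay at nt 363 in Starve-only, 353 in UT-only and 147 in shared regions. Closer to the start the exclusive classes lay further apart: 42 of 723 Starve-only summits (5.81%, 4.33 to 7.76) lay within 100 nt, against 62 of 586 UT-only summits (10.6%, 8.34 to 13.3). These intervals cover counting error only and treat isoforms as separate regions. With 1 region per gene, its strongest, the shares within 300 nt were 49.6% of 452, 49.7% of 344 and 81.4% of 269 genes. Over whole lists, 32.0% and 29.2% of Starve peaks and 37.6% and 31.5% of UT peaks lay within 300 nt, a difference of −3.92 percentage points (exact permutation test over the 4 lists, two-sided, p = 0.667).

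**Figure D2:**
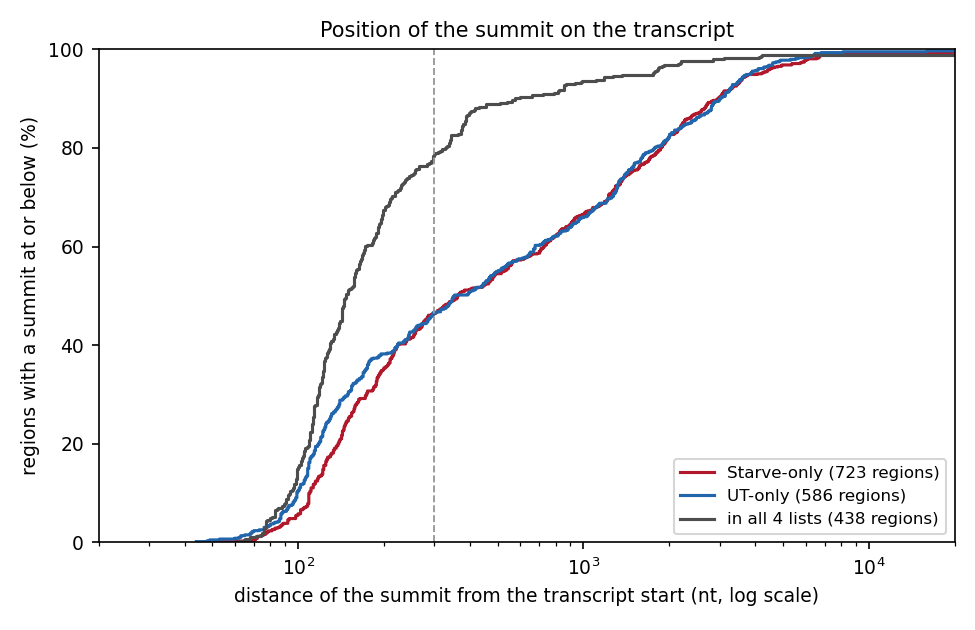
Cumulative share of regions (y axis, %) by distance of the summit from the transcript start (x axis, nt, log scale), with a dashed line at 300 nt. Starve-only and UT-only regions follow each other beyond 200 nt, with 46.3% and 46.6% at the line, while 78.8% of regions in all 4 lists lie left of it.

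The other 6 lists of the series, from H2O2-treated cells, from ALKBH3 knockout cells (KO) and from another set of untreated wild-type cells (WT), played no part in the classes. At least 1 of the 2 WT lists held 24.6% of Starve-only regions (21.6 to 27.9), 24.1% of UT-only regions (20.8 to 27.7) and 80.8% of regions in all 4 lists (76.9 to 84.2). The order of the exclusive classes turned with the settings: with equal list lengths the WT share was 23.4% of Starve-only and 30.4% of UT-only regions, and with peaks of 4-fold or more 34.3% and 42.1%. The H2O2 lists held 28.1% of Starve-only regions (24.9 to 31.5), 32.9% of UT-only regions (29.3 to 36.8) and 83.1% of shared regions. The KO lists held 26.1% (23.1 to 29.5), 21.2% (18.0 to 24.6) and 63.0% (58.4 to 67.4). By gene, with a peak anywhere, a KO list held 35.2% of the 514 Starve-only genes (31.2 to 39.4) and 22.3% of the 345 UT-only genes (18.2 to 27.004), and a WT list 30.2% (26.3 to 34.3) and 25.2% (20.9 to 30.1). By region the KO intervals of the exclusive classes overlapped. In 341 of these 514 genes and 214 of the 345 the replicates had no region in common. Shares over all regions or genes with a peak were not computed, so no background stands beside these values. None of the 6 lists held 378 Starve-only regions (52.3%), 311 UT-only regions (53.1%) and 24 shared regions (5.48%).

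In the exclusive classes, regions near the 5′ end recurred more often in the WT lists. The WT lists themselves had 55.4% and 73.9% of their peaks within 300 nt, against 29.2% to 37.6% in the Starve and UT lists. Whether the recurrence went beyond this was not tested. Of Starve-only regions within 300 nt of the start 41.2% were in a WT list, against 10.3% of those further in, and of UT-only regions 40.7% against 9.58%. Shared regions did not follow this in every list: an H2O2 list held 81.4% of those within 300 nt and 89.2% of those beyond. MRPL10 was the Starve-only gene of highest fold among regions that all 6 other lists held. MFGE8 (4.36 and 2.42), YBX3, a cold shock domain protein (2.17 and 2.73), and TBKBP1 (1.57 and 2.27) were in all 6 as well. ARHGDIA, with folds of 6.21 and 13.6, the noncoding CHASERR, EPN1 and ELK1 were in 5. At these 8 regions the lists without a call were the 2 UT lists and at most 1 other, while ELK1 and TBKBP1 had a UT peak elsewhere on the transcript, 727 and 273 nt away. The Starve-only regions of highest fold that none of the 6 held were those of FAM3C (13.7 and 16.5, nt 506 to 695 of NM_001040020), CHMP5, KRI1 (9.70 and 13.9), GART, PPIL4, BAX, TRAF4, an adaptor of TNF receptor signalling (8.08 and 7.23), and TWNK, the mitochondrial DNA helicase (12.02 and 6.93). A UT peak lay on the same transcript in TWNK, 10 nt from the region, and in KRI1 (411 nt), GART (557 nt) and TRAF4 (1302 nt). FAM3C was not Starve-only by gene, so a UT list had a peak on another of its transcripts.

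**Figure D3:**
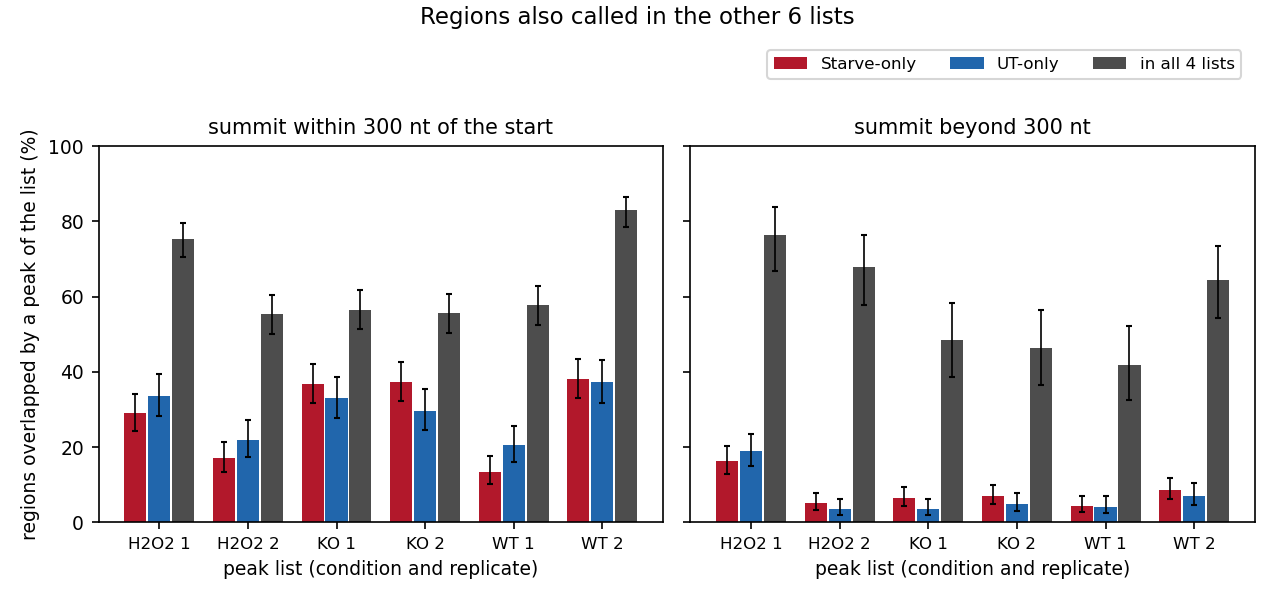
Share of regions (y axis, %) overlapped by a peak of each of the other 6 lists (x axis), for regions with a summit within 300 nt of the start (left) and beyond (right). Bars are Starve-only, UT-only and shared regions, and error bars are 95% Wilson intervals. The Starve-only and UT-only bars lie below the shared bars in every list, and furthest apart within 300 nt in KO 2 (37.3% and 29.7%) and WT 1 (13.4% and 20.5%).

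Gene groups tied to serum and nutrients were read against the background: 5.34% of the 8465 genes with a peak had a Starve-only region, 4.06% a UT-only one and 3.18% one in all 4 lists. No test was run on a group, so these counts are descriptions. A gene counted for a region can have a peak of the other group elsewhere, so counts by gene, with a peak anywhere, stand beside them (6.07%, 4.08% and 9.95% over all genes). In PI3K, AKT and mTOR signalling, which couples growth factors and amino acids to protein synthesis, 6 of 42 genes (14.3%) had a Starve-only region and 0 a UT-only one. EIF4EBP2, an inhibitor of the cap-binding protein that mTOR phosphorylates, had folds of 3.33 and 4.45 at nt 63 to 192 of NM_004096 and no UT peak anywhere. MTOR itself had 3.23 and 15.1 at nt 1573 to 1763 of NM_004958, SESN2, a leucine sensor that restrains mTOR, 3.09 and 4.85, and the kinase AKT1 2.93 and 6.02. MTOR, SESN2 and AKT1 also had UT peaks, at 2250, 526 and 775 nt from these regions. Counted by gene, with a peak anywhere, 1 of the 42 was Starve-only (EIF4EBP2), 1 UT-only (RICTOR, a subunit of mTOR complex 2) and 6 were in all 4 lists, so 5 of the 6 genes with a Starve-only region also had a peak elsewhere in a UT list. AKT2, one of the 6 genes, also had a region in all 4 lists (7.68 and 7.40 in Starve, 3.61 and 6.34 in UT).

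The growth factor receptor and ERK cascade group had a Starve-only region in 2, a UT-only one in 2 and a shared one in 3 of 26 genes. In the order of the cascade, the receptor FGFR3 had a Starve-only region (5.001 and 2.99) and PTPN11, a phosphatase that acts between receptors and RAS, a UT-only one (20.3 and 4.54). HRAS, a small GTPase of the cascade, was called in all 4 (2.47 and 3.51 in Starve, 1.91 and 3.90 in UT), as was MAPK3. The kinase MAP2K1 had a UT-only region (3.54 and 4.93). ELK1, a transcription factor that ERK activates, had a Starve-only region (4.70 and 4.81 at nt 52 to 160 of NM_001114123). Of 23 serum-responsive early genes with a peak, 1 had a Starve-only region, the mRNA decay factor ZFP36L1 (4.01 and 3.80 at nt 1390 to 1548), and 0 a UT-only or shared one. In the integrated stress and amino acid response 2 of 30 genes had a Starve-only region, SESN2 and the pseudokinase TRIB3 (2.73 and 14.5), and 1 a UT-only one, the chaperone HSPA5 (2.07 and 2.42). The Starve-only shares of the 3 groups were 7.69%, 4.35% and 6.67%. By gene, the ERK group had 0 Starve-only and 1 UT-only genes, the early genes 2 and 0, and the stress response 2 and 2. SESN2, TRIB3 and HSPA5 were not among these, having a peak of the other group elsewhere.

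Cell cycle and DNA replication genes had a Starve-only region in 8, a UT-only one in 3 and a shared one in 3 of 74 genes (10.8%, 4.05% and 4.05%). SKP2, which recognises cell cycle inhibitors for degradation, had folds of 10.9 and 8.73 at nt 83 to 200 of NM_001243120. E2F1, the activator of S phase genes, had 7.37 and 15.1 at nt 1935 to 2060, 7 nt from a UT peak, so this call turns on the width of a peak. CDC20, an activator of the anaphase-promoting complex, had 2.83 and 11.9, and MCM4, a subunit of the replicative helicase, 2.67 and 3.04. A UT-only region was called in thymidine kinase TK1 (4.08 and 5.12), the inhibitory kinase WEE1 (3.23 and 4.31, 24 nt from a Starve peak) and MCM3, another helicase subunit (2.28 and 4.42). CKS1B, a partner of SKP2, TFDP1, a partner of E2F1, and TYMS, thymidylate synthase, were in all 4. MCM3 and MCM4, which belong to 1 complex, thus had regions of opposite classes. Counted by gene, 6 were Starve-only, 4 UT-only and 13 in all 4 lists. These 6 were mostly other genes than the 8 with a Starve-only region. Of those named above CDC20 was among the 6, while SKP2, E2F1 and MCM4 had a peak elsewhere in a UT list.

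In the translation machinery, translation factors had a Starve-only region in 5 of 42 genes (11.9%), a UT-only one in 1 (2.38%) and a shared one in 2. The initiation factor subunits EIF3G (3.12 and 9.66 at nt 49 to 211 of NM_003755) and EIF3B (3.44 and 3.21 at nt 2889 to 3004), the elongation factor subunit EEF1D (4.47 and 3.71) and the release factor ETF1 (2.83 and 6.05) had Starve-only regions. EIF5, which triggers GTP hydrolysis at the start codon, had a UT-only region (3.23 and 3.94), and EIF5A and EEF1A2 had a region in all 4. By gene, 4 were Starve-only, 1 UT-only and 5 in all 4 lists. EIF3G and EEF1D were among these 4, while EIF3B and ETF1 had a peak elsewhere in a UT list. Of 34 cytosolic ribosomal protein genes RPS16 had the single Starve-only region (2.94%), while RPL17 (3.17 and 3.33), RPL10 (3.40 and 3.03) and RPL32 (2.39 and 2.23) had UT-only ones (8.82%). RPS20 was in all 4. Counted by gene, 2 ribosomal protein genes each were Starve-only, UT-only and in all 4 lists. These genes have many processed pseudogenes, and the placing of shared reads was a point not given in the sources used here. Mitochondrial ribosomal protein genes had a Starve-only region in 4 of 55 genes (7.27%), MRPL10, MRPL36 (4.36 and 8.13), MRPL4 (5.73 and 3.77) and MRPL49 (4.04 and 3.39), a UT-only one in 0 and a shared one in 3, MRPL30, MRPS26 and MRPL41. By gene, 4 were Starve-only, 2 UT-only and 5 in all 4 lists. MRPL10 and MRPL36 were Starve-only by gene, while MRPL4 and MRPL49 had a peak elsewhere in a UT list.

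Metabolic groups were small. Of 19 genes of purine and pyrimidine synthesis 3 had a Starve-only region (15.8%) and 2 a UT-only one (10.5%). GART, which catalyses several steps of purine synthesis, had folds of 9.39 and 12.02 at nt 836 to 1033 of NM_000819, and PAICS, of the same pathway, 5.41 and 14.9 at nt 252 to 471 of NM_006452. CAD, the multifunctional enzyme that starts pyrimidine synthesis, had both kinds: a Starve-only region at nt 4029 to 4159 (5.25 and 25.5) and a UT-only one at nt 5612 to 5718 (3.74 and 3.12) of NM_004341. Peaks of the other group lay 24 and 77 nt away. PRPS2, which makes the ribose phosphate donor, had a UT-only region (7.18 and 5.12). By gene, 1 was Starve-only, 0 UT-only and 4 in all 4 lists. GART, PAICS, CAD and PRPS2 each had a peak of the other group elsewhere. In sterol synthesis SQLE (7.57 and 2.75) and LSS (2.22 and 15.3), successive enzymes after squalene, had Starve-only regions, and SC5D (2.72 and 7.26) and INSIG1, which retains the sterol sensor in the endoplasmic reticulum (2.51 and 2.55), UT-only ones, among 23 genes. By gene, 0 were Starve-only and 2 UT-only. In glycolysis GPI (3.43 and 5.62) and ALDOA (1.64 and 1.87) had Starve-only regions, LDHA (7.28 and 3.96) a UT-only one and ENO2 a shared one, among 17 genes. GPI and LDHA had a peak somewhere in every list, and ALDOA had one elsewhere in a UT list. By gene 1, not one of these, was Starve-only and 0 UT-only.

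Of 49 autophagy and lysosome genes 2 had a Starve-only region (4.08%), 3 a UT-only one (6.12%) and 3 a shared one. By gene the order turned, with 6 Starve-only, 1 UT-only and 9 in all 4 lists. The lysosomal protease CTSD (3.50 and 3.42) and the autophagy receptor OPTN (3.94 and 2.41) had Starve-only regions and no UT peak. The lysosomal hydrolases CTSA (3.81 and 9.43), CTSB (12.1 and 3.45) and GAA (2.92 and 4.07) had UT-only regions, and each had a peak elsewhere in 1 Starve list. MAP1LC3B and GABARAPL2, ubiquitin-like proteins of the autophagosome membrane, and ATP6V0C, a proton pump subunit, had a region in all 4. MAP1LC3B had folds of 10.6 and 7.31 in Starve and 8.27 and 8.78 in UT. Of 22 apoptosis regulators 2 had a Starve-only region (9.09%), BAX and AIFM1, a mitochondrial flavoprotein (4.10 and 21.2), and 3 a UT-only one (13.6%), BID (4.71 and 4.28), the apoptosome core APAF1 (7.16 and 3.45) and the protease CASP6 (2.99 and 3.69). By gene the order turned here too, with 5 Starve-only and 3 UT-only.

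Of 27 RNA methylation genes 3 had a Starve-only region (11.1%), 1 a UT-only one and 1 a shared one, and by gene 4 were Starve-only and 0 UT-only. TRMT10C, part of the mitochondrial enzyme that makes m1A in tRNA, had folds of 5.35 and 5.95 at nt 56 to 166 of NM_017819, in neither UT list and in none of the other 6. HSD17B10, its partner in that enzyme, was in all 4 lists (4.37 and 9.95 in Starve, 11.5 and 7.85 in UT). WTAP (2.11 and 1.72) and ZC3H13 (1.39 and 2.49), both subunits of the m6A methyltransferase, had Starve-only regions of low fold, and RBM15B, of the same complex, a UT-only one (2.51 and 3.66). All 3 had a peak of the other group elsewhere. Peaks do not measure expression, so they check the cell type only in part. Of 5 marker genes that HEK293T cells express, 4 had a peak in at least 1 list. KRT8, VIM and NEFL had one in 1 list each and NEFM in all 4, while KRT18 had no peak. Of 11 markers of other cell types 1 had a peak, the collagen gene COL1A1, in both UT lists (5.26 and 3.45).

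**Figure D4:**
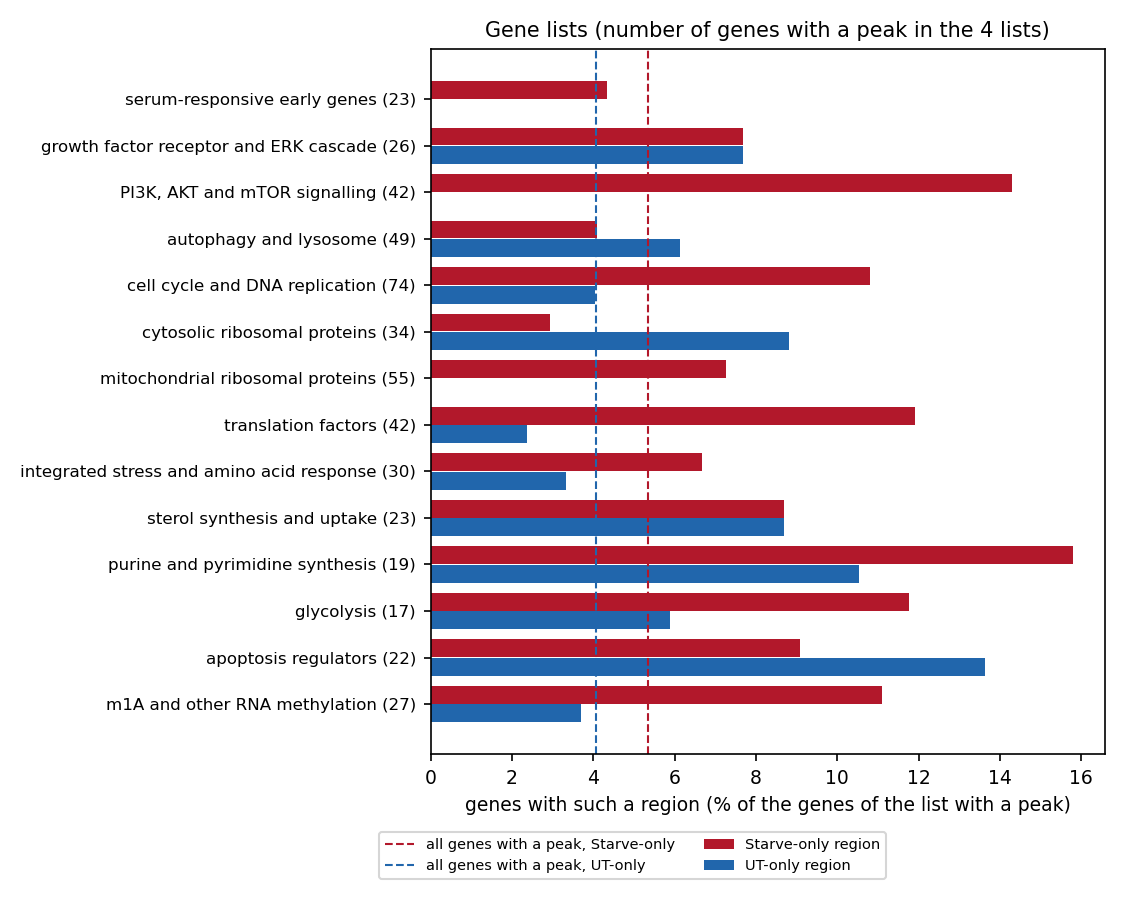
Share of the genes of each group (x axis, % of its genes with a peak, whose number stands in parentheses) that had a Starve-only region (red) or a UT-only region (blue). Dashed lines mark the shares over all genes with a peak, 5.34% and 4.06%. By region, PI3K, AKT and mTOR signalling shows 14.3% Starve-only and 0 UT-only, and cytosolic ribosomal proteins show the opposite order.

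Of the 452 genes with a Starve-only region 20 also had a UT-only one, in 19 of them on the same transcript. Over all 8465 genes with a peak, 4.06% had a UT-only region, and no test was run on this overlap. The other group could still have a peak close by: a UT peak lay 10 nt from the Starve-only region in TWNK and 24 nt in CAD. TWNK had a Starve-only region at nt 39 to 165 of NM_021830 (12.02 and 6.93) and a UT-only one at nt 1513 to 1681 (7.16 and 6.66). DRAP1, a transcriptional corepressor, had a Starve-only region at nt 32 to 157 of NM_006442 (4.36 and 11.9) and a UT-only one that began 26 nt after it, at nt 183 to 315 (6.31 and 6.27). GPC1, a cell surface proteoglycan, showed the opposite order along the transcript, Starve-only at nt 2145 to 2283 of NM_002081 (5.001 and 6.83) and UT-only at nt 194 to 300 (4.76 and 12.1). TNK2, SP9, NDRG3, CC2D1A and CAD were the others of highest fold. No direction along the transcript was shared by these 8 genes.

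Sequence at the start was described for the regions near the 5′ end. A start with C at the first base and then 4 pyrimidines, as in the terminal oligopyrimidine (TOP) mRNAs that mTOR controls, was present at 8.22% of 292 starts of genes with a Starve-only region near the 5′ end. The share was 5.19% of 231 starts for UT-only, 5.86% of 273 for shared regions, 5.11% over genes with a peak and 4.07% over all 35116 starts. RPS16 was among the Starve-only genes with such a start. The letters GTTCNA, which resemble the T loop of tRNA that TRMT6 with TRMT61A methylates, were searched on the transcribed strand within the first 50 bases. They occurred at 2.40% of starts for Starve-only, 2.60% for UT-only, 1.83% for shared regions and 2.33% over all starts. The search covers neither the rest of the transcript nor most summits, which lie further in.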

How the data were processed

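Per the submitters' processing notes, Trim Galore, HISAT, MACS2 and the build hg19 were used, in no stated order or version. MACS2 made 1 peak list for each replicate on RefSeq transcripts, per the file headers. The deposited pileup, a coverage signal, is the height of a peak at its summit and shows no normalization. The deposited fold is each peak's enrichment over background, and at many peaks it followed pileup alone. The deposited −log10 q-value is that of the peak caller. The control library of each call was not given in the sources used here. No read totals were used, so depth is unknown beyond pileup.

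Here, peaks were merged and classed with Python 3.11.15, pandas 2.3.3 and scipy 1.17.1. The step was run on simulated lists with each region alone on its transcript. That run covers the counting only, not near misses, chains of overlapping peaks or isoforms. Symbols came from RefSeq's GRCh38.p14 gene table, used for names: 15219 of 15473 transcripts (98.4%) matched. On 4 transcripts 165 peaks lie beyond 110000 nt and may not be transcript positions. Shares carry 95% Wilson intervals. Named genes were those of highest lower fold of the replicates: 16 Starve-only and 12 UT-only genes with no peak in the other group, 10 in all 4 lists, up to 4, 3 and 3 genes per gene list in these classes, up to 8 Starve-only genes found in the most or in none of the other 6 lists, and 8 with both a Starve-only and a UT-only region. UQCRC1, TNKS, ADIPOR1, RICTOR and the genes shown by sequence fall outside that rule and were chosen after their values were seen. Transcripts without a symbol were left out of the named genes. The members and gene lists were chosen with earlier results of these data known. Alternatives were a minimum fold of 4, a −log10 q-value of 5, equal list lengths, summit distance, 1 transcript per gene, far positions left out, and each replicate left out. The 4 windowed coverage files were not used, having no Starve or UT library. For 1 gene chosen by the rule for named genes no values are reported here.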

Additional observations from a re-analysis of the deposited data

How the results depend on the processing

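No paired analysis was possible because the classes come from no fitted test. Starve-only regions outnumbered UT-only regions where the −log10 q-value was at least 5 (666 against 479). With peaks of 4-fold or more the counts were 362 Starve-only, 233 UT-only and 175 shared regions, and 499 Starve-only, 196 UT-only and 274 shared genes. With 1 transcript per gene they were 442, 342 and 276 regions. With lists made equally long, 7871 peaks each, Starve-only regions fell to 471, below the 563 UT-only ones, and genes came to 417 in each class. The order by region thus differed between these settings. Keeping only the strongest peaks also drops those of low fold, so list length and fold were not separated.

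Within 300 nt of the start, a 4-fold minimum gave 56.1% of Starve-only, 56.2% of UT-only and 83.4% of shared regions, and equal list lengths 51.0% of UT-only ones. Within 100 nt the shares were 5.81%, 10.6% and 15.3%. In a WT list a 4-fold minimum gave 34.3%, 42.1% and 86.3%, and equal list lengths 23.4% of Starve-only and 30.4% of UT-only regions, so that UT-only exceeded Starve-only. In an H2O2 list it gave 34.5%, 41.2% and 92.6%. Both WT lists held 6.22%, 8.87% and 52.5%, and both H2O2 lists 4.70%, 4.95% and 50.5%.

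Leaving out 1 list lets a single list suffice. Starve-only regions then ranged from 954 to 8681 and genes from 923 to 1660, UT-only regions from 730 to 6837 and genes from 597 to 1305, and shared regions from 575 to 760 and genes from 1094 to 1320. Without a UT list, UT-only regions outnumbered Starve-only ones (6837 against 966, and 5574 against 954). Without a Starve list, Starve-only regions outnumbered UT-only ones (6749 against 913, and 8681 against 730). Every region of the single list left in a group counts as exclusive where the other group lacks it, so these orders follow from the rule. Shares within 300 nt ranged from 20.02% to 53.1% for Starve-only and from 22.2% to 56.4% for UT-only. Shares in a WT list ranged from 7.04% to 32.5% for Starve-only, 6.25% to 37.7% for UT-only and 70.6% to 72.2% for shared regions. Shares in an H2O2 list ranged from 11.3% to 34.2%, 10.4% to 43.6% and 70.8% to 73.6%. For the shares, the cause of these shifts was not tested beyond the smaller number of lists. Low pileups, down to 16 in a list, limit what a missing call can show.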
